A study of Homo sapiens with 6 samples.

Results

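The peaks described here were the m6A peaks of Kasumi-1 cells that the authors annotated to a 3′ UTR and that lay in 1 uninterrupted exon block. A peak was included when its annotation read 3′ UTR and its list of block sizes held 1 entry, so no measured value entered the choice. The peak list of the combined treatment held 12365 such peaks among 42634 (29.0%), or 12353 in 7443 genes once 12 repeated entries were counted once. The list of peaks compared between conditions held 5775 among 19983 (28.9%), or 5772 in 4361 genes once 3 repeated entries were counted once.

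Kasumi-1 is a human acute myeloid leukaemia cell line that carries the RUNX1-RUNX1T1 fusion, and the labels give its genotype as WT. In the 6 libraries used here, 3 of IP RNA and 3 of input RNA, the cells had received 100 uM CoCl2 together with 10 nM echinomycin for 24 h. CoCl2 stabilises HIF proteins and is widely used to mimic hypoxia, and echinomycin keeps HIF-1 off its DNA sites. Libraries of cells given CoCl2 alone or neither agent were not analysed here, so the comparison with CoCl2 alone rests on 1 value per peak from the authors' deposited table, with no replicate values. The design text describes the 3 replicates as biological, without saying whether they were separate cultures.

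N6-methyladenosine (m6A) is written on mRNA by the METTL3-METTL14 complex and its partners, removed by ALKBH5 and FTO, and bound by readers such as the YTH proteins. In most cell types it is concentrated near stop codons and in the first part of the 3′ UTR. There it is known to bear on decay, translation and the choice of poly(A) site. Methylated RNA immunoprecipitation reports it as enrichment of RNA fragments over input, so a peak is a stretch of RNA and not a single modified base. Fold enrichment here is IP over input for 1 peak, and it is the authors' own value.

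The labelled cell type was checked against input FPKM. Of 10 myeloid blast markers, 8 reached 1 FPKM, and their summed level was 176 to 193 FPKM over the 3 input libraries. MPO, the granule peroxidase of myeloid cells, averaged 56.2 ± 2.74 FPKM and the stem cell factor receptor KIT 40.4 ± 1.87 FPKM (SD, n = 3 each), while AZU1 and ELANE lay below 1 FPKM. Of 5 T cell markers only CD3D passed 1 FPKM (32.1 ± 2.30 FPKM, SD, n = 3), and CD3G and CD2 were listed at 0. The summed levels were 7.65 to 9.06 FPKM for 4 B cell markers, 1.42 to 1.71 FPKM for 4 megakaryocytic markers and 9.28 to 10.4 FPKM for 4 epithelial markers, the last mostly EPCAM. For the 2 erythroid and the 2 fibroblast markers found in the table, all libraries summed to less than 1 FPKM. In bulk RNA, few cells of another type and a low level per cell cannot be told apart. The part of these other markers in the results was not tested. The input libraries agreed in rank at Spearman correlations of 0.981 to 0.983 across genes.

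Single-block 3′ UTR peaks were moderately enriched. Their median fold enrichment was 3.99 (quartiles 2.35 and 6.99, range 1.08 to 176), against 4.53 over all 42618 listed peaks. Peaks of 3′ UTRs that spanned several exon blocks had a median of 5.24, and single-block 5′ UTR peaks one of 3.82. The median length was 301 bases, with a range of 57 to 5873 bases, against 330 bases over all listed peaks. An authors' FDR that was not under 0.05 belonged to 1366 of the peaks (11.1%), against 12.6% of all listed peaks. By their median, single-block 3′ UTR peaks were thus a little shorter and a little less enriched than the list as a whole.

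The strongest enrichment among genes at 5 FPKM or more belonged to PARVG, which encodes an actin-binding parvin of blood cells. Its 360-base peak at chr22:44207395-44207754 had an enrichment of 176, and a neighbouring 958-base peak one of 47.5. CCDC127 followed with 102 over 689 bases, then the sorting nexin SNX8 with 83.8 over 1588 bases and NMT1, which attaches myristate to proteins, with 77.4 over 868 bases. NUDT16L1 reached 58.7, the transcriptional repressor ERF 44.5, ZNF182 43.8, the kinase PKMYT1 40.1, the condensin subunit NCAPD3 38.2 and the histone chaperone HIRA 37.3. A high ratio did not go with a high input level in these genes, whose mean input FPKM ran between 5.62 in ZNF182 and 28.3 in ERF. Coordinates are those of the authors' tables, whose genome build is not named.

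Enrichment rose with the length of the block. In 4 groups by length, the median enrichment was 2.28 for 57 to 180 bases, 3.07 for 181 to 301 bases, 4.49 for 307 to 567 bases and 7.14 for 568 to 5873 bases. Across the 12353 peaks the Spearman correlation of length with enrichment was 0.57. Across the 8563 peaks of genes at 1 FPKM or more, mean input FPKM correlated with enrichment at -0.19 and with length at -0.0040. These are correlations across peaks, which share 6 libraries and are not independent replicates. The authors' FDR was not under 0.05 for 24.1% of the shortest group and for 2.27% of the longest.

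**Figure D1:**
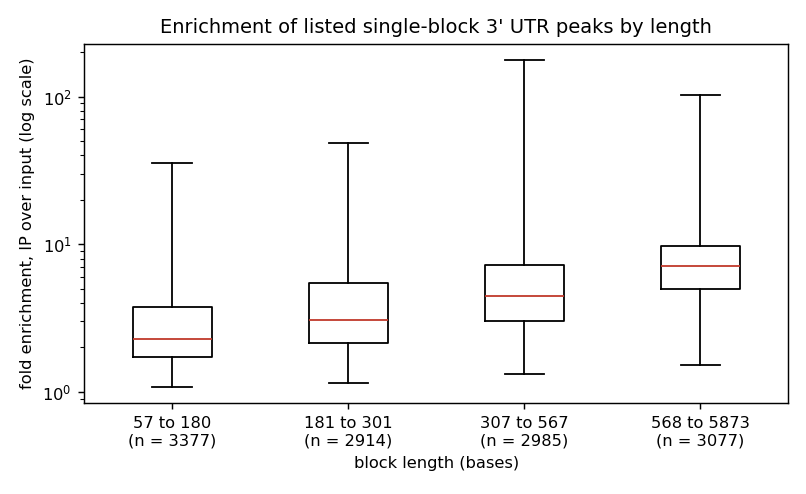
Fold enrichment of IP over input (log scale) for the listed single-block 3′ UTR peaks in 4 groups by block length in bases. Boxes span the quartiles, red lines are medians (2.28, 3.07, 4.49 and 7.14) and whiskers reach the lowest and highest peak, so the boxes climb with length while the whiskers overlap throughout.

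The longest blocks ran far beyond the size of a sequenced fragment. Among genes at 5 FPKM or more, the longest listed ones belonged to the zinc finger genes ZNF292 (5873 bases, enrichment 7.15), ZNF646 (3899 bases, 6.43) and ZNF445 (3389 bases, 11.7). The toll-like receptor gene TLR1 had one of 3168 bases (9.77) and ZC3H4 one of 2935 bases (10.5). The 3′ UTR annotation does not say how far such a block reaches into the coding exon beside it. Another gene lay on the same strand over the compared block that spans the TLR1 peak, so the gene assigned to that peak is uncertain. The TLR1 peak was centred 27956.5 bases from the 3′ end of its assigned transcript.

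Most genes carried 1 such peak. Of 7443 genes, 4589 (61.7%) had 1, 1773 had 2 and 1081 had 3 or more. At 5 FPKM or more the proteasome ATPase gene PSMC1 had 10 listed peaks of 91 to 690 bases with enrichments of 1.75 to 5.47. FBXO22, which encodes an F-box protein, and POLR2J3, one of several near-identical copies of an RNA polymerase II subunit gene, had 9 each, and FEM1A and HEBP2 had 8 each, a number that STARD5 and TUG1 shared. Several of these peaks lie on top of each other, since 13.5% of the listed single-block 3′ UTR peaks overlapped another one.

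The gene named for a peak was usually a protein-coding one. By symbol, 95.6% of the listed peaks matched the RefSeq table of GRCh38.p14, and 98.8% of these were assigned to protein-coding genes. Another gene lay over 22.2% of the peaks on the opposite strand and over 10.2% on the same strand. The sources used here do not say whether peaks were called by strand, so for these the assigned gene is uncertain. They include the TMSB10, SEC61A1, MCM2, EP300, REL, PABPN1 and AMACR peaks described further on. The centre lay a median of 1173 bases upstream of the 3′ end of the assigned transcript, 89.0% of the peaks lay wholly inside that transcript, and 7.28% crossed its 3′ end. Median enrichment was 3.63 for peaks centred within 200 bases upstream of that end or past it. Farther upstream it was 4.42 at 200 to 1000 bases, 3.96 at 1000 to 5000 bases and 4.02 beyond 5000 bases. All distances to the 3′ end were counted along the genome, so they include any introns and are not positions in the mRNA.

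Of 12612 genes at 1 FPKM or more, 5218 (41.4%, exact 95% interval 40.5 to 42.2) had at least 1 listed single-block 3′ UTR peak. The share was 30.0% (27.5 to 32.6) in the lowest decile by mean input FPKM, 47.6% (44.8 to 50.4) in the decile next to the highest and 41.6% (38.9 to 44.4) in the highest. Intervals given for shares are exact ones by the method of Clopper and Pearson and describe counting error alone.

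Enrichment fell more often than it rose with echinomycin added to CoCl2. In the authors' deposited table, 4021 of the 5772 compared single-block 3′ UTR peaks (69.7%) changed at the authors' FDR under 0.05, against a background of 68.9% over all 19979 compared peaks. Of the 5772, 1238 were higher (21.4%, against 23.1% of all compared peaks) and 2783 were lower (48.2%, against 45.8% of all compared peaks) by the authors' deposited table. The shares called lay close to the background. The median log2 fold change of enrichment was -0.46 in the authors' deposited table, against -0.43 over all compared peaks. Sizes were mostly moderate: the median was 0.67 among the higher and -0.71 among the lower, and 306 higher and 674 lower peaks passed 2-fold in the authors' deposited table. The labels do not state the direction, which was taken as combined treatment over CoCl2 because the table's name puts the combined treatment first. Of the peaks with a log2 fold change of 2 or more in the authors' deposited table, 210 of 212 (99.1%, interval 96.6 to 99.9) overlapped a listed peak of the combined treatment, against 98 of 244 (40.2%, 34.0 to 46.6) of those at -2 or less.

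Among changed peaks, 69.2% were lower in the single-block 3′ UTR class (interval 67.8 to 70.6), against 65.3% (64.4 to 66.3) of the rest of the compared peaks in the authors' deposited table. The share was 71.2% in 3′ UTR peaks of several blocks and 66.5% in single-block exon peaks. It was 54.0% in single-block 5′ UTR peaks and 63.7% in 5′ UTR peaks of several blocks. Peaks are not replicates of a condition, and 12.0% of the compared single-block 3′ UTR peaks overlapped another one, so the intervals describe counting error and no test was made of these differences. On all 22 chromosomes with at least 50 changed peaks, most of these were lower in the authors' deposited table.

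Among changed peaks, the shortest blocks were more often higher and the longest ones mostly lower. In 4 groups by block length, lower peaks made up 34.1% (30.5 to 37.9) of the changed peaks up to 211 bases, 55.8% (52.5 to 59.1) of those of 217 to 390 bases, 72.7% (70.0 to 75.3) of those of 391 to 720 bases and 92.5% (90.9 to 93.8) of those over 720 bases in the authors' deposited table. The median log2 fold change over all compared peaks of the group was 0.39, -0.36, -0.48 and -0.63 in the same order, by the authors' deposited table. The share called also climbed, being 41.6%, 67.6%, 78.9% and 93.0%, so most of the shortest blocks were not called: 429 of 1565 were higher and 222 lower. Higher peaks had a median length of 299 bases, lower ones of 660 bases and those not called of 211 bases in the authors' deposited table. How far the authors' calling of peaks and of changes depends on block length was not tested.

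The order by length was shared with every other class at the same lengths, and up to 720 bases single-block 3′ UTR peaks had a larger share lower than every class but the single-block exon peaks. Over all compared peaks in the authors' deposited table, the shares lower of changed were 27.0%, 44.0%, 66.0% and 90.6%. Up to 211 bases, 34.1% (30.5 to 37.9) of changed single-block 3′ UTR peaks were lower, against 22.1% (15.1 to 30.5) in 3′ UTR peaks of several blocks, 20.3% (15.7 to 25.6) in single-block 5′ UTR peaks, 14.6% (10.4 to 19.6) in 5′ UTR peaks of several blocks, 14.0% (8.48 to 21.2) in exon peaks of several blocks and 33.7% (28.9 to 38.8) in single-block exon peaks, by the authors' deposited table. At 217 to 390 bases, 55.8% of changed single-block 3′ UTR peaks were lower, against 33.1% (28.7 to 37.7) in 3′ UTR peaks of several blocks, 34.7% (28.7 to 41.1) in single-block 5′ UTR peaks and 31.8% (27.6 to 36.2) in 5′ UTR peaks of several blocks, by the authors' deposited table. Exon peaks of several blocks stood at 34.4% (28.6 to 40.5) and single-block exon peaks at 55.9% (50.8 to 60.9), so the higher share was common to the 3′ UTR and the exon peaks of 1 block. At 391 to 720 bases the share was 72.7%, against 57.3% to 62.0% in the 4 classes other than single-block exon peaks, which had 77.3%, in the authors' deposited table. Above 720 bases the 6 classes ran between 88.4% and 92.5% in the authors' deposited table.

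**Figure D2:**
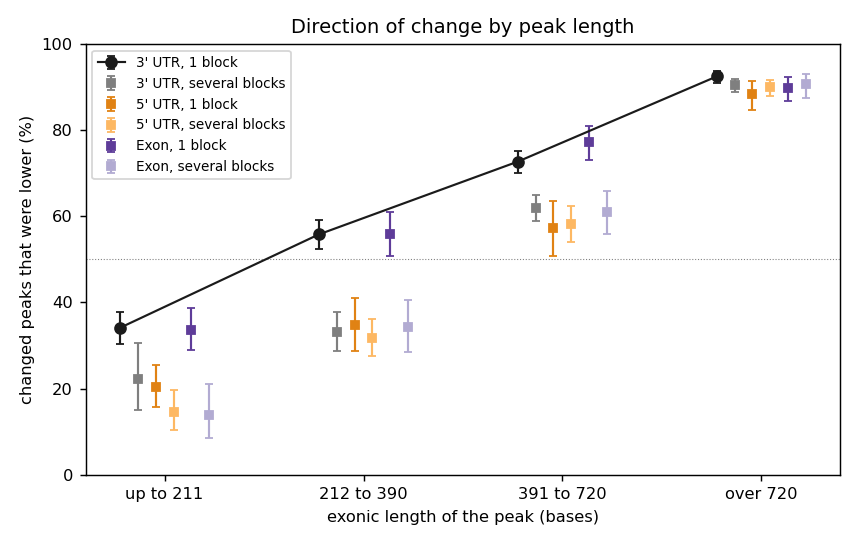
Percent of changed peaks that were lower in the combined treatment than in CoCl2, by exonic length in bases, for single-block 3′ UTR peaks (black circles, joined) and the 5 other classes (squares). Bars are exact 95% intervals for counting error, the dotted line marks 50%, and the single-block 3′ UTR peaks run 34.1%, 55.8%, 72.7% and 92.5%.

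**Figure D3:**
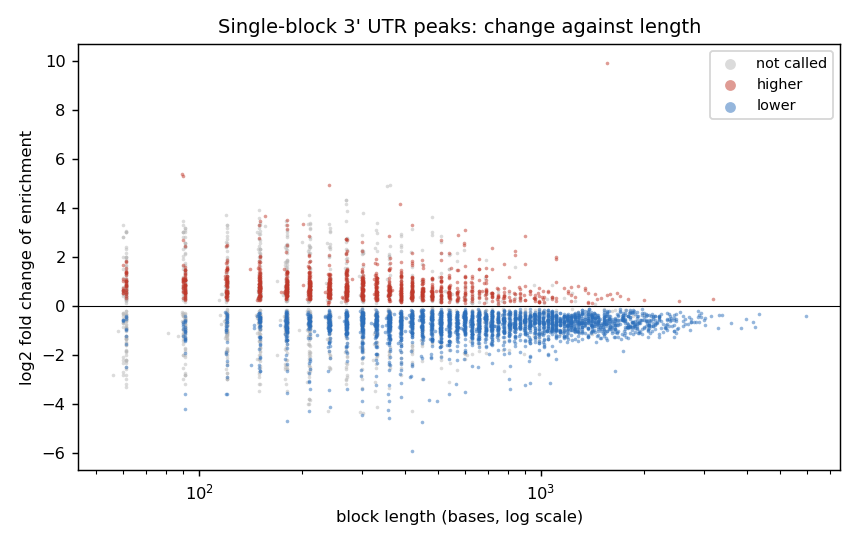
Log2 fold change of enrichment, combined treatment over CoCl2, against block length (log scale) for the 5772 compared single-block 3′ UTR peaks, coloured by the authors' call. Higher peaks have a median length of 299 bases and lower ones of 660 bases, and the point far above the others is TRAPPC10 at 9.90.

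The order also held within levels of expression. In genes at 20 FPKM or more, lower peaks made up 35.2%, 50.3%, 68.6% and 86.6% of the changed peaks in the 4 length groups of the authors' deposited table. At 5 to 20 FPKM they made up 30.6%, 53.8%, 68.9% and 89.3%, and at 1 to 5 FPKM 37.5%, 54.2%, 74.2% and 95.0%. Under 1 FPKM, where 38 peaks of the shortest group were called, the shares were 42.1%, 78.0%, 83.1% and 96.7% in the authors' deposited table. Over all lengths, 85.4% of changed peaks were lower under 1 FPKM and 58.9% at 20 FPKM or more. These levels are those of the combined treatment, whose input libraries are the ones with FPKM used here.

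Genomic distance to the 3′ end of the assigned transcript separated the shorter blocks. The first position group held peaks centred within 200 bases upstream of the 3′ end of the assigned transcript or anywhere beyond it. There, 62.1% (54.1 to 69.6) of changed peaks of the shortest group were lower in the authors' deposited table. Farther upstream the share was 18.4% (12.3 to 25.9) at 200 to 1000 bases, 23.7% (18.5 to 29.7) at 1000 to 5000 bases and 34.7% (26.2 to 44.1) beyond 5000 bases. For blocks of 217 to 390 bases the shares in the same 4 position groups were 71.9%, 58.8%, 39.0% and 54.3%, and for those of 391 to 720 bases 75.6%, 78.4%, 65.6% and 72.5%, in the authors' deposited table. In the longest group it lay between 91.4% and 93.6% in all 4 position groups of the authors' deposited table.

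Short lower peaks were often missing from the peak list. Of the 222 lower peaks of the shortest group in the authors' deposited table, 81 (36.5%, interval 30.1 to 43.2) overlapped a listed peak of the combined treatment by at least 1 base, against 425 of the 429 higher ones (99.1%, 97.6 to 99.7). In the longest group 1235 of 1238 lower and 101 of 101 higher peaks overlapped one. Both tables were made from the combined-treatment libraries, so this overlap is no independent check. Where they overlapped, the listed peak had a median enrichment of 5.50 for lower and 2.81 for higher peaks.

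The same contrast appeared inside genes. Of 631 genes with at least 2 changed single-block 3′ UTR peaks in the authors' deposited table, 360 had lower ones only, 126 higher ones only and 145 both. In 114 of these 145 genes the lower peaks were longer by their median, in 28 the higher ones were, and in 3 they were equal. The medians of these gene medians were 720 bases for lower and 300 bases for higher peaks. FOSL2, an AP-1 subunit gene, had a 1559-base block (chr2:28412014-28413572) at a log2 fold change of -0.57 and a 121-base block (chr2:28414770-28414890) at 0.80 in the authors' deposited table. SNX1, a sorting nexin gene, had a 1587-base block at -0.90, a 121-base block at 0.79 and a 420-base block at 2.18 in the authors' deposited table.

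In most genes, a changed peak of another class moved in the same direction. Peaks were matched by gene, so they need not lie on the same transcript. In 755 genes with a changed single-block 3′ UTR peak and a changed 5′ UTR peak, both were lower in 349 and both higher in 126 by the authors' deposited table. In 180 the 3′ UTR peak was lower and the 5′ UTR peak higher, and in 100 the reverse held, so the directions were opposite in 37.1% of these genes. They were opposite in 21.8% of 685 genes with a changed 3′ UTR peak of several blocks and in 38.8% of 466 genes with another changed exon peak in the authors' deposited table.

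The peaks with the lowest FDR came from very abundant transcripts and split by length. Among the higher ones at 5 FPKM or more were the ribosomal protein genes RPL37A (log2 fold change 0.70, 211 bases), RPS15A (0.62, 271 bases) and RPL6 (0.65, 240 bases) in the authors' deposited table. The actin-binding TMSB10 (0.85, 202 bases) and the elongation factor EEF1A1 (0.40, 300 bases) completed the 5 in the authors' deposited table. The 5 lower ones in the authors' deposited table were the elongation factor EEF2 (-0.46, 686 bases), the AP-1 subunit JUN (-0.97, 1196 bases), the stress-responsive transcription factor NFE2L1 (-0.46, 2002 bases), the translocon subunit SEC61A1 (-0.79, 1198 bases) and RPL37 (-1.15, 571 bases). A second RPL37 block of 601 bases was also called, at -0.11, in the authors' deposited table. Input levels ran up to 3381 ± 140 FPKM for EEF1A1 and 811 ± 23.0 FPKM for EEF2 (SD, n = 3 each).

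The largest rises were few and mostly modest in length. The highest value was that of TRAPPC10, which encodes part of a complex that tethers vesicles, at 9.90 over 1559 bases (chr21:44103407-44104965) in the authors' deposited table. Its input level was 3.77, 3.45 and 3.68 FPKM. The overlapping listed peak, a 3′ UTR peak of several blocks and so not among the single-block ones, had an enrichment of 295. Among genes at 5 FPKM or more, NRDC, which encodes nardilysin, stood at 3.29 with an overlapping block at 2.77, both of 150 bases, the translation factor gene EIF2B4 at 2.75 and the transcription factor gene ATF7 at 2.47 in the authors' deposited table. NF2, the tumour suppressor merlin, stood at 2.35 over 719 bases, MRNIP at 2.26, SNX1 at 2.18, RSBN1 at 2.06, and CHMP1A and TMEM87B at 2.03 each in the authors' deposited table. Another gene lay on the opposite strand over the NRDC, EIF2B4 and ATF7 peaks, and over the 360-base PSMF1 peak. Over the ATF7 peak, centred 35356 bases from the 3′ end of its assigned transcript, another gene also lay on the same strand.

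The largest falls at this expression level lay farther from 0 than the rises. PSMF1, an inhibitor of the proteasome, stood at -4.58 over 360 bases, and its 600-base block at -0.38, in the authors' deposited table. TBC1D1 followed at -3.58, F8A3 at -3.50, the phosphatase activator PTPA at -3.08, AMACR at -2.88 and the replication factor RFC3 at -2.77 in the authors' deposited table. STMN1, which destabilises microtubules, stood at -2.44, the chromodomain gene CHD9 at -2.36 and PDCD2 at -2.24 in the authors' deposited table. F8A3 is one of several near-identical copies on the X chromosome, so its reads could be split among them. No listed peak of the combined treatment overlapped the changed blocks of PSMF1 at -4.58, TBC1D1, PTPA, CHD9 or PDCD2 at -2.24.

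Of 418 genes in 19 lists, 149 had a compared single-block 3′ UTR peak. By the peak of lowest p in each gene, 50 of the 149 were higher and 76 lower in the authors' deposited table, against 949 higher and 2252 lower among all 4361 genes with such a peak. The median log2 fold change over those 4361 genes was -0.48, and the median length 421 bases. The lists overlap, and no list was tested.

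Immediate early and short-lived transcripts, whose RNAs are induced within minutes and decay quickly, were mostly lower. Of 15 compared, 11 were lower, 2 higher and 2 not called in the authors' deposited table, with a median of -0.58 and a median length of 563 bases. Lower genes also made up 70.4% of the changed ones among all genes with such a peak. Over those genes, called or not, the median was -0.48 and the median length 421 bases. JUN had 81.8, 81.3 and 86.5 FPKM in the 3 input libraries, with no library apart. Its single block, at chr1:58781299-58782494 on the transcript of a gene without introns, fell by 0.97 on the log2 scale in the authors' deposited table (log10 FDR -434), and the overlapping listed peak had an enrichment of 25.4. EGR1, a zinc finger transcription factor, fell by 1.05 over 778 bases, with a mean input level of 5.14 ± 0.608 FPKM (SD, n = 3), by the authors' deposited table. MYC, the growth-promoting transcription factor, fell by 0.83 over 869 bases, with 5.74, 4.63 and 5.92 FPKM, by the authors' deposited table. These levels say nothing of the change in RNA, since FPKM of CoCl2-treated cells was not analysed here.

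Of 8 compared HIF target genes, 6 were lower and 2 higher in the authors' deposited table, a split near that of all genes with such a peak, of whose changed ones 70.4% were lower. The list's median was -0.33, against -0.48 over those genes, and its median length 718 bases. VEGFA, the endothelial growth factor, had 13.1, 11.9 and 12.1 FPKM in the input libraries. Its 1378-base block (chr6:43784421-43785798) fell by 0.43 in the authors' deposited table, and a 211-base block nearer the end stood at -0.45 and was not called. The glucose transporter genes SLC2A3 and SLC2A1 fell by 0.42 and 0.26 in the authors' deposited table, whereas ADM, which encodes adrenomedullin, rose by 0.29. Of the HIF pathway regulators, the HIF-2 alpha gene EPAS1 (0.72) and VHL, the ubiquitin ligase subunit that marks HIF proteins for destruction (0.89 over 91 bases), were higher in the authors' deposited table. The coactivator genes CREBBP (-0.82 over 2370 bases) and EP300 (-0.40 over 2220 bases) were lower there. HIF1A, at 25.4 ± 0.832 FPKM (SD, n = 3), had no single-block 3′ UTR peak in either table.

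In TNF and NF-kB signalling 6 of 9 compared genes were lower and 2 higher in the authors' deposited table, with a median of -0.48 and a median length of 690 bases. The split lay near that of all genes with such a peak, of whose changed ones 70.4% were lower. Over those genes the median was also -0.48, and the median length 421 bases. TNF, the inflammatory cytokine, had 14.1, 13.5 and 15.9 FPKM in the input libraries, and its 690-base block (chr6:31577318-31578007) fell by 1.18 in the authors' deposited table. The NF-kB subunit REL fell by 0.91 over 2329 bases and the inhibitor NFKBIE by 0.77 over 1098 bases in the authors' deposited table. RELA had 2 blocks at -0.42 and -0.48 and another at 0.62 in the authors' deposited table.

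Haematopoietic transcription factors counted 6 lower, 1 higher and 4 not called of 11 in the authors' deposited table, with a median of -0.25 and a median length of 601 bases. Among all genes with such a peak, 70.4% of the changed ones were lower, the median was -0.48 and the median length 421 bases. GATA2, a stem and progenitor cell factor, fell by 0.76 over 926 bases and SPI1, the myeloid master regulator, by 0.44 over 601 bases in the authors' deposited table. MYB was the higher one, with 2 changed blocks of 210 bases, the more changed one at 1.60, in the authors' deposited table. RUNX1 (0.30) and RUNX1T1 (0.43), the partners of the fusion in this line, were not called in the authors' deposited table. At the RUNX1T1 block, reads of the fusion transcript and of normal RUNX1T1 transcripts could not be told apart.

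Transcripts of m6A readers were mostly higher. Of 6 compared readers, 5 were higher and 1 lower in the authors' deposited table, with a median of 0.58 and a median length of 374 bases. Over all genes with such a peak, 70.4% of the changed ones were lower, the median was -0.48 and the median length 421 bases. The higher ones were IGF2BP2 (0.79 over 240 bases), ELAVL1 (0.79 over 389 bases), YTHDC2 (0.62 over 689 bases), HNRNPC (0.54 over 121 bases) and YTHDC1 (0.50 over 360 bases) in the authors' deposited table. YTHDF1, a cytoplasmic reader, fell by 0.19 over 480 bases in the authors' deposited table. IGF2BP2 also had a 660-base block that fell by 0.57 and a 211-base block that rose by 0.55 in the authors' deposited table. The demethylase ALKBH5 rose by 0.48 over 209 bases (chr17:18209746-18209954), and its 120-base block stood at 0.26 and was not called in the authors' deposited table. Of the writers, RBM15B fell by 0.72 over 2698 bases and RBM15 stood at -0.30, not called, in the authors' deposited table. METTL16, a separate methyltransferase, had 2 listed single-block 3′ UTR peaks with enrichments of 2.41 and 2.42, and VIRMA, a scaffold of the writer complex, had one of 5.32. The tables used here listed or compared no such peak for METTL3, METTL14, WTAP, ZC3H13, CBLL1, YTHDF2, YTHDF3, HNRNPA2B1, FMR1, PRRC2A, IGF2BP1 or IGF2BP3. FTO, at 0.702 FPKM, had 2 listed peaks of 91 bases and no compared one.

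Factors of mRNA decay divided evenly. In mRNA deadenylation and decay, 6 of 14 were higher and 6 lower in the authors' deposited table, with a median of 0.12 and a median length of 271 bases. For comparison, 70.4% of the changed ones were lower among all genes with such a peak. Their median was -0.48 and their median length 421 bases, counting also genes that were not called. The helicase UPF1, of nonsense-mediated decay, fell by 0.40 over 1679 bases in the authors' deposited table. CNOT7, a deadenylase, had a 181-base block at 0.77 and blocks of 690 and 301 bases at -0.51 and -1.16 in the authors' deposited table. The microRNA machinery had 2 higher, 2 lower and 2 not called of 6: all 3 blocks of AGO1, an Argonaute, rose by 0.74 to 0.90, and all 6 of TNRC6C, its silencing partner, were lower, with several of these lying over each other, in the authors' deposited table. On the list of AU-rich element binding proteins, 3 of 4 compared genes were higher and 1 lower. The list also held PUM2, a Pumilio protein that is not of this kind. Another of the higher ones was ELAVL1, which was counted among the readers too. ZFP36L2 fell by 0.67 over 1341 bases, and ZFP36L1 and PUM2 rose by 0.23 and 0.68 in the authors' deposited table. In 3′ end processing 2 were higher (CPSF7 at 0.73, CSTF2 at 0.66) and 3 lower (among them PABPN1 at -0.52 and WDR33 at -2.12) of 7 in the authors' deposited table. No listed peak of the combined treatment overlapped this WDR33 block of 151 bases, which was centred 35029 bases from the 3′ end of the assigned transcript.

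The lists of ribosomal protein and respiratory chain genes, whose single-block peaks were short, counted slightly more higher than lower genes. Among all genes with such a peak, by contrast, 70.4% of the changed ones were lower, and the median length was 421 bases. Of 9 ribosomal protein genes on the list, 5 were higher and 3 lower in the authors' deposited table, with a median of 0.38 and a median length of 240 bases. The list held 39 genes and was not complete: RPL37A and RPS15A, both higher, were not on it and are not in these counts. RPL22 rose by 0.38 in both of its blocks, and RPL13, over 630 bases, fell by 0.48 in the authors' deposited table. Of 8 respiratory chain genes 4 were higher and 3 lower, with a median of 0.35 and a median length of 283 bases. ATP5F1B (0.57 over 120 bases) and COX4I1 (0.29 over 270 bases) were higher and UQCRFS1 (-0.79 over 630 bases) was lower in the authors' deposited table.

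Counts for proliferation, death and stress genes lay near those of all genes with such a peak, of whose changed ones 70.4% were lower. In cell cycle and replication, 6 of 10 were lower and 2 higher in the authors' deposited table, with a median of -0.33. The replicative helicase subunits MCM5 (-1.21), MCM2 (-0.64) and MCM3 (-0.54) and the mitotic kinase AURKA (-0.67) were among the lower ones in the authors' deposited table. The p53 target genes and the apoptosis genes each counted 4 lower, 2 higher and 2 not called of 8 in the authors' deposited table, with medians of -0.55 and -0.048, and the pore-forming BAX (-0.83) stood on both lists. On the list for unfolded protein and integrated stress responses, 4 of 7 were lower and 2 higher, with a median of -0.37: TRIB3, a pseudokinase induced by stress, fell by 0.93, the chaperone HSPA5 by 0.28, and XBP1 rose by 0.32 in the authors' deposited table. Of 16 chromatin regulators, 9 were lower and 7 higher in the authors' deposited table. The maintenance methyltransferase DNMT1 rose by 1.75 over 120 bases, and ARID1A, ASXL1 and TET2 fell by 0.57, 0.39 and 0.25 over 2068, 3150 and 2547 bases in the authors' deposited table.

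**Figure D4:**
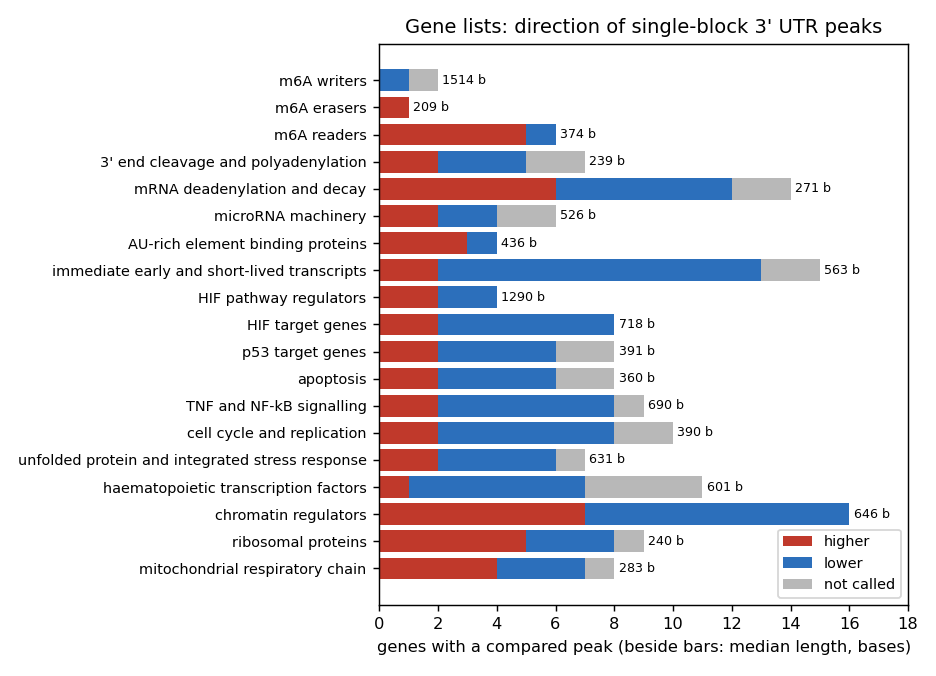
Number of genes in each of 19 lists whose compared single-block 3′ UTR peak of lowest p was higher, lower or not called, combined treatment against CoCl2. The number beside each bar is the median block length in bases (b): the immediate early list has 11 lower of 15 and the m6A readers 5 higher of 6. Among all 4361 genes with such a peak, 949 were higher and 2252 lower.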

How the data were processed

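Fragments of poly(A) RNA were pulled down with an m6A antibody, and libraries were paired-end and kept the strand, per the labels' protocols. The submitters' processing notes name fastp, HISAT2, HOMER and ChIPseeker, with no role or version. Not given in the sources used here are the peak caller, the tool behind FPKM, the genome build and how replicates were combined. The authors deposited, for each peak of the combined treatment, a fold enrichment as a linear ratio, a p-value, and log10 FDR values that were read as a score. For each compared peak the authors deposited the change in enrichment as a log2 value, with its p-value and its FDR as a log10 score. FPKM per gene was deposited for the input libraries, per the file headers, and 6 other per-sample FPKM columns were not used. FPKM gave no read counts, so the depth is unknown.

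Peaks were selected by annotation and number of blocks, and entries repeated with the same gene and positions were counted once. A peak counted as changed at the authors' FDR under 0.05. Overlap needed at least 1 base and the same strand of the assigned genes. Peaks were grouped by length into 4 groups of similar size, cut at 211, 390 and 720 bases among compared peaks, and separately among listed ones. For lists of genes, each gene was represented by its peak of lowest p. Values were computed in Python 3.11.15 with pandas 2.3.3, scipy 1.17.1, numpy 2.4.6 and, for figures, matplotlib 3.10.9, and the summaries were tested on simulated data. No test of differences between classes was made, since each peak has 1 value.

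Named genes had a mean input FPKM of 5 or more. They were the 10 with the highest enrichment, the 10 highest and 10 lowest changed log2 fold changes, the 5 higher and 5 lower changed peaks of lowest FDR, the 5 genes with most peaks, the 5 longest peaks, and up to 4 changed genes per list by lowest p. The m6A writers, erasers and readers, HIF1A, EPAS1, VEGFA, MYC, TNF, RUNX1, RUNX1T1 and TRAPPC10 were always named. Some genes that this rule picks are not reported here. STARD5 and TUG1 were added as ties after their values were seen. The peaks and lists were chosen with earlier results of these data known, and the look at block length within strata of expression and position was chosen after seeing the data.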

Additional observations from a re-analysis of the deposited data

How the results depend on the processing

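Of the values recomputed for the main results, 25 stayed within their interval, spread or 1.5 times the count, 17 moved and none changed sign. The median enrichment of 3.99 became 3.90 for peaks with an authors' FDR under 0.05, 3.28 and 2.91 for genes at 1 and 5 FPKM or more, and 5.07 for the most enriched peak per gene. In the authors' deposited table the 4021 changed peaks became 980 with a 2-fold limit and 2274 at 5 FPKM or more. At 1 and 5 FPKM or more, the share lower became 66.5% and 62.4%, and the median log2 fold change -0.42 and -0.34, in the authors' deposited table. Overlap with the peak list, 88.6%, became 82.0% when 50% of the compared peak had to be covered and 82.9% against single-block 3′ UTR peaks alone. The share of genes with several peaks, 38.3%, became 33.8% at 5 FPKM or more, and the share of expressed genes with a peak became 45.5%. The difference in share lower between the longest and shortest length group, 58.4 points, became 65.5 at an authors' FDR under 0.01, 76.4 for peaks overlapping a listed one and 67.5 for peaks centred over 200 bases from the 3′ end, alternatives chosen after seeing the data. The causes of these shifts were not tested, beyond the fewer peaks that each limit leaves. Leaving out each input library in turn gave 41.3% to 41.6% for the share of expressed genes and 12.7 to 13.0 FPKM for the median level of named genes, against 12.8 FPKM with all 3. Counts of lower genes in the 19 lists stayed within 1.5 times when the peak with the highest absolute fold change stood for each gene. No paired analysis was possible because each peak has 1 value and the input libraries belong to 1 condition. Peak values carry no replicate error, and the shortest peaks had the smallest share of calls (41.6%).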
